A study of Mus musculus with 2 samples.

Results

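Clusters of thyroid hormone receptor (TR) binding sites are stretches of DNA in which 3 or more occupied sites follow each other with at most 10 kb between neighbouring summits. They were chosen from the summit positions of the deposited ChIP-seq peaks, so their number and spacing are a description and not a finding. The peak list held 5107 TR binding sites (TRBS). Chromosomes X and Y and the part of chromosome 9 below 3.1 Mb were left out, which removed 93 TRBS and left 5014. Of these, 568 TRBS (11.1% of the whole list) fell into 169 clusters. The other TRBS formed 459 pairs, with 918 sites, or stood alone (3528 single sites).

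The tissue was brown adipose tissue of male C57BL/6J mice, 8 to 12 weeks old, in which a GS-tagged version of the receptor isoform TRα1 was expressed only in brown adipocytes. The mice ate propylthiouracil, a drug that blocks thyroid hormone synthesis, for 2 weeks and then received thyroid hormone during 24 h. Chromatin precipitated through the tagged receptor gave 1 ChIP library, and the same kind of chromatin without precipitation gave 1 input library. Genotype, strain, drug and hormone were therefore the same in both libraries, the Cre line behind the tag and the number of pooled animals are not given in the sources used here, and there was no replicate, so no difference below was tested.

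TRs are nuclear receptors that bind DNA mainly as heterodimers with the retinoid X receptor (RXR) and switch from repression to activation of transcription when thyroid hormone binds. Their best known response element is the DR4, a direct repeat of the half-site AGGTCA with a spacer of 4 bases, in which RXR contacts the upstream half-site and TR the downstream one. In brown fat, thyroid hormone acts together with noradrenaline on heat production and lipid turnover. A receptor can also be held at a site by a partner protein, so a peak need not contain an element of its own. The question put to the clusters is how many of the TRBS that lie together at a locus carry a DR4 of their own.

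The sequences below, read from the mouse genome GRCm38, are 30-base windows around the best DR4 of a site, written 5′ to 3′ on the strand of the element. Capitals mark the 6 bases of each half-site, and sites are numbered along the chromosome within their cluster. Up to 2 of the 12 half-site bases were allowed to differ. The first set is shown because these are the only 4 cluster sites, of 568, that held a DR4 without mismatch.
Kif16b site 3, chr2:142878407-142878436, minus strand: tcaggtcAGGTCAggtcAGGTCAgggcagg
Pwwp2b site 3, chr7:139257435-139257464, plus strand: gacttggAGGTCAtgtcAGGTCAttggtgt
Gse1 site 1, chr8:120328813-120328842, plus strand: gggtctgAGGTCActgaAGGTCAactcatc
Timp3 site 1, chr10:86336094-86336123, plus strand: gtctggcAGGTCAcactAGGTCActgttgg

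The second set shows clusters in which 3 or more sites each carried a DR4. Kif16b, the cluster of the kinesin gene of that name, had at least 1 in each of its 4 sites, with 16 elements in all. The best elements of its sites 1, 2 and 4 are given here with those of Slc26a6, an anion exchanger gene with a DR4 in each of its 3 sites.
Kif16b site 1, chr2:142875785-142875814, minus strand: cctccctGGGTCAggcaAGGTGAtaagtct
Kif16b site 2, chr2:142876719-142876748, plus strand: ggcttagAGGTGAgcaaAGGTCTccacaga
Kif16b site 4, chr2:142883057-142883086, plus strand: aacacagAGGTCAcctaAGTTCAagccttt
Slc26a6 site 1, chr9:108848403-108848432, minus strand: attctatGGGTCAagctAGGGCAgttgcta
Slc26a6 site 2, chr9:108849855-108849884, plus strand: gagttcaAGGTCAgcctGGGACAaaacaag
Slc26a6 site 3, chr9:108852998-108853027, minus strand: cctacaaAGGTCAtcctGGGTGAgtattct
Nudt18 site 1, chr14:70573214-70573243, minus strand: atcctggACGTCTctccAGGTCAgagcaca
Nudt18 site 2, chr14:70574302-70574331, plus strand: gctgagtAAGTCAcccgAGGTTAcgcggcc
Nudt18 site 3, chr14:70576982-70577011, plus strand: tgagtggAGGTTAaagaAGCTCAgaggaag
Midn site 3, chr10:80147645-80147674, minus strand: gtcccagAAGTCAgctcAGGTCAtcagtgg
Midn site 6, chr10:80159507-80159536, plus strand: atgtcccAGGGCAcctcAGGTCTggccctt
Midn site 7, chr10:80160990-80161019, plus strand: cagaaagAGGTCActacGGGTCAtggcttc

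The third set holds elements next to genes of adipocyte metabolism and gene control, shown because these genes are described below. The first 6 have 1 mismatch and the last 4 have 2.
Cebpb site 2, chr2:167687835-167687864, plus strand: ggggcggAGGTCAccccAGCTCAgcagata
Cebpb site 4, chr2:167696185-167696214, minus strand: ggcaaagAGGTCAttccAGGTGAcaatagt
Thrsp site 3, chr7:97423927-97423956, minus strand: cggggtgAGGTCAggttAGTTCActgctag
Pnpla2 site 3, chr7:141456273-141456302, plus strand: gtcccatAGGTCAggcaAGGTGAcaagggc
Ppara a site 3, chr15:85706101-85706130, plus strand: cccagcaAGGTCAgctcAGGCCAccctgag
Klf13 site 1, chr7:63912097-63912126, plus strand: gaatctgAGGTCAgctgAGGACAacagttt
Hr site 1, chr14:70549612-70549641, minus strand: tggattaAAGTCAacccAGGGCAagcgcct
Hr site 2, chr14:70552144-70552173, minus strand: cgggtggAGGGCAtctgAGGACAtcccctc
Pdk4 site 4, chr6:5507975-5508004, minus strand: tgaaccaAGGGCAggctAGGACAagcactg
Ucp1 site 2, chr8:83284721-83284750, minus strand: ctggtagAGCTCTtgctAGGTCAagactct

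Most clusters were small. Of the 169 clusters, 121 held 3 TRBS, 38 held 4 and 8 held 5. The cluster at Tob2 had 6 TRBS and the cluster at Midn had 7. The median gap between neighbouring summits was 3683 bp over 399 gaps, and the middle 50% lay between 1811 and 6487.5 bp. The shortest gap was 664 bp, and 22 gaps were under 1 kb. From the first to the last summit a cluster covered a median of 9724 bp, from 2067 bp at Thra to 25410 bp at Klf13. The clusters just inside the limit were those of Sbno2, Nfkbia and Lrp1, whose widest gaps were 9994, 9977 and 9905 bp. Groups that missed it lay near Phospho1, Uck1 and Hivep2, with gaps of 10043, 10105 and 10119 bp. A gap over 9 kb was needed to hold 23 of the 169 clusters together.

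The 2 libraries limit what each site can show. The number of ChIP fragments under each summit was worked back from the deposited fold and p-value, which succeeded for all 568 cluster sites. A cluster site had a median of 21 fragments (middle 50%, 13 to 38), against 18 for sites of pairs and 16 for single sites. The range was 5 to 362 in clusters, and single sites ranged from 5 to 282. The median fold over input was 11.7 in clusters, 10.4 in pairs and 9.49 in single sites. Input background at the summits was nearly the same, with medians of 0.685, 0.672 and 0.672 fragments on the scale of the ChIP library. Cluster peaks were also wider, with a median of 489.5 bp against 442.5 bp in pairs and 414 bp in single sites. A score of at least 60, the cut used by the study, was reached by 86.1% of cluster sites, 85.0% of sites in pairs and 81.3% of single sites.

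Within a cluster the sites were not equal. The strongest site held a median of 48.4% of all summit fragments of its cluster, from 28.2% at Midn to 86.2% at Ginm1. It had a median of 3.3 times the fragments of the weakest site, with a range from 1.1 to 20.25 times. The total over a cluster was 84 fragments in the median, from 28 at Ppp1r3b to 778 at Ucp1. The strongest site had no fixed place: in clusters of 3 it was the first along the chromosome in 42, the middle one in 40 and the last in 39.

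A DR4 was present in 168 of 568 cluster sites when up to 2 mismatches were allowed, or in 29.6% (95% Wilson interval, 26.0 to 33.5%). Over the whole list the share was 32.0%. It was 29.0% in pairs (26.1 to 32.0%) and 33.5% in single sites (31.9 to 35.0%), so over whole peaks cluster sites lay slightly below single sites with intervals that overlapped. In windows of equal width, 2 kb beyond the edges of cluster sites, 59 of 985 held a DR4 (5.99%, 4.67 to 7.65%). The interval of the sites did not overlap that of their surroundings. With at most 1 mismatch the shares were 5.63% in clusters, 6.32% in pairs and 7.82% in single sites, against 7.23% of the whole list. Within 100 bp of the summit, a DR4 with at most 2 mismatches was present in 23.9% of cluster sites (20.6 to 27.6%). Sites in pairs had nearly the same share, 24.3% (21.6 to 27.2%), and single sites had 29.2% (27.7 to 30.7%). The interval of single sites overlapped neither that of clusters nor that of pairs, so the lower share was not particular to clusters. All intervals cover counting error only, and neighbouring sites are not independent.

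The DR4 share was higher at sites with more fragments, in clusters as in single sites. In clusters it was 21.8% under 12 fragments (15.1 to 30.4%), 25.9% at 12 to 19, 28.1% at 20 to 39 and 42.6% at 40 or more (34.4 to 51.3%). Single sites had 23.7, 31.4, 38.4 and 52.1% in the same classes. At equal fragments the value for clusters was therefore below that of single sites in each class. At 20 to 39 fragments the interval of clusters ended at 35.2% while that of single sites began at 35.5%, and in the other classes these intervals overlapped. Pairs had 21.9, 24.1, 31.8 and 46.5%, also below single sites in each class. Cluster sites with a DR4 had a median of 24 fragments and those without had 19.

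**Figure D1:**
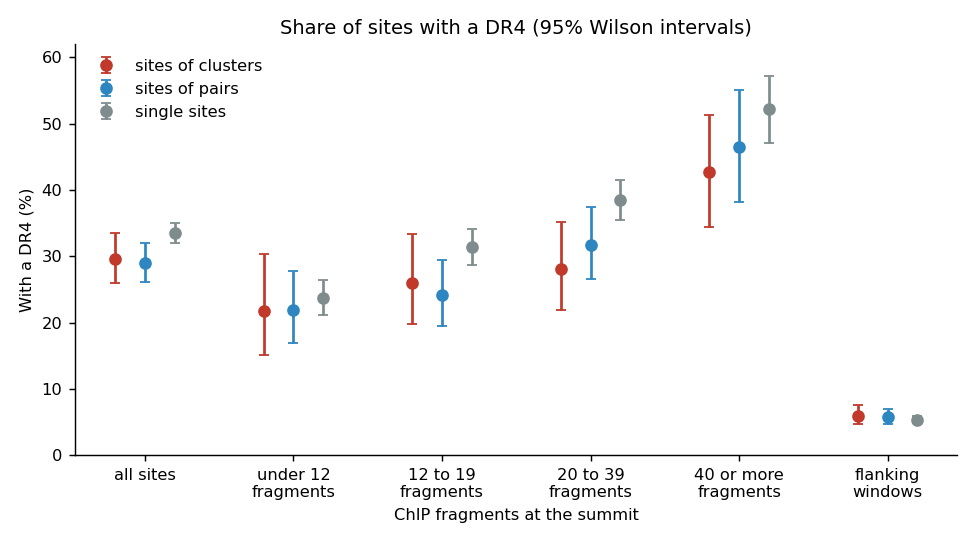
Share of sites with a DR4 (y axis, percent) for sites of clusters, sites of pairs and single sites, over all sites, by the number of ChIP fragments at the summit, and in flanking windows; bars are 95% Wilson intervals. The share in clusters climbs from 21.8% under 12 fragments to 42.6% at 40 or more, and flanking windows lie near 6%.

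With up to 2 mismatches, most clusters contained a DR4, and the commonest number of sites with one was 1. Both statements rest on that limit. With at most 1 mismatch 17.2% of clusters had a DR4, and with at most 3 mismatches 86.4% had it in 2 or more sites and 10.7% in exactly 1. No site carried a DR4 in 50 of the 169 clusters (29.6%), 1 site did in 76 (45.0%), 2 sites in 38 (22.5%), 3 sites in 4 (2.37%) and 4 sites in 1 (0.592%). At least 1 site carried it in 119 clusters (70.4%, 63.1 to 76.8%), and at least 2 in 43 (25.4%, 19.5 to 32.5%). A DR4 in every site was found in 2 clusters, Kif16b (4 of 4) and Slc26a6 (3 of 3). The other clusters with 3 such sites were Sardh, Nudt18 and Midn. Among the 10 clusters of 5 or more sites, Midn had 3 DR4 sites, 3 clusters had 2, 5 had 1 and Ucp3 had 0. In pairs, the counts with 0, 1 and 2 DR4 sites were 230, 192 and 37 of 459.

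Neighbouring sites were compared next to the DR4 share of 29.6% for single members of a cluster. Of 399 steps from one site of a cluster to the next, both had a DR4 in 32 (8.02%), 1 site had it in 167 (41.9%) and neither in 200 (50.1%). In pairs both sites had a DR4 in 8.06%. Each DR4 site was also set against the next DR4 site of its cluster, sites without a DR4 between them being skipped. The best elements lay on the same strand in 24 of these 49 cases (49.0%), about as often as on opposite strands.

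**Figure D2:**
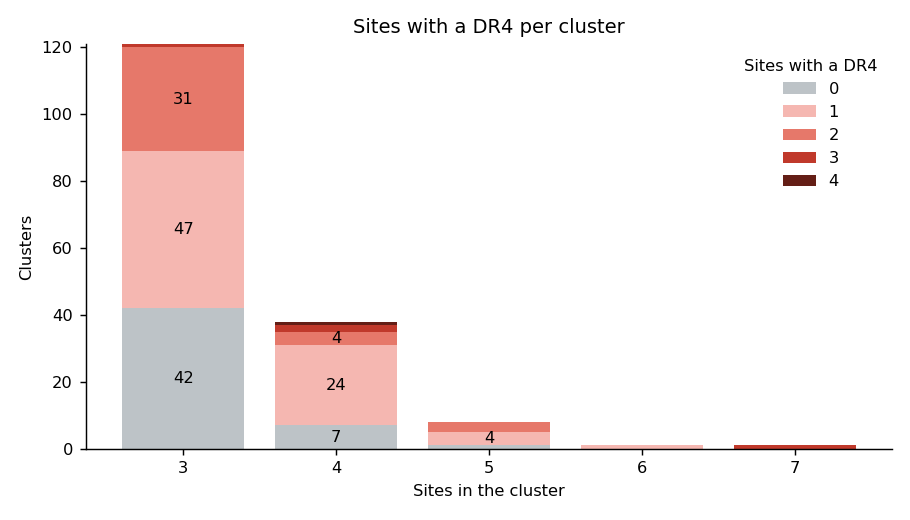
Number of clusters (y axis) by the number of sites in the cluster (x axis), with colours for how many of these sites carry a DR4. Of the 121 clusters of 3 sites, 42 have no DR4 site, 47 have 1 and 31 have 2, and the single cluster of 7 sites has 3.

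The DR4 shares followed the rank of the sites in a cluster. In clusters of 3, the strongest, middle and weakest sites had medians of 39, 21 and 12 fragments, and a DR4 was found in 44, 38 and 30 of 121 of them (36.4, 31.4 and 24.8%). In clusters of 4 the shares by rank were 39.5, 34.2, 21.1 and 15.8% of 38, with medians of 55.5, 30, 17 and 10.5 fragments. Intervals of neighbouring ranks overlapped in both sizes. Over all sizes, the strongest site carried a DR4 in 63 of 169 clusters (37.3%, 30.3 to 44.8%). Where exactly 1 site of a cluster carried the DR4, this was the strongest site in 29 of 76 (38.2%, 28.1 to 49.4%). For clusters of 3 these lone DR4 sites were the strongest in 20, the middle in 13 and the weakest in 14 of 47. A cluster has 1 strongest site and at least 2 others, so these counts do not place the DR4 away from the strongest site. The share in the strongest site changed with a wider limit. With at most 3 mismatches the lone DR4 site was the strongest in 13 of 18 clusters (72.2%), and with at most 1 mismatch in 10 of 26 (38.5%).

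**Figure D3:**
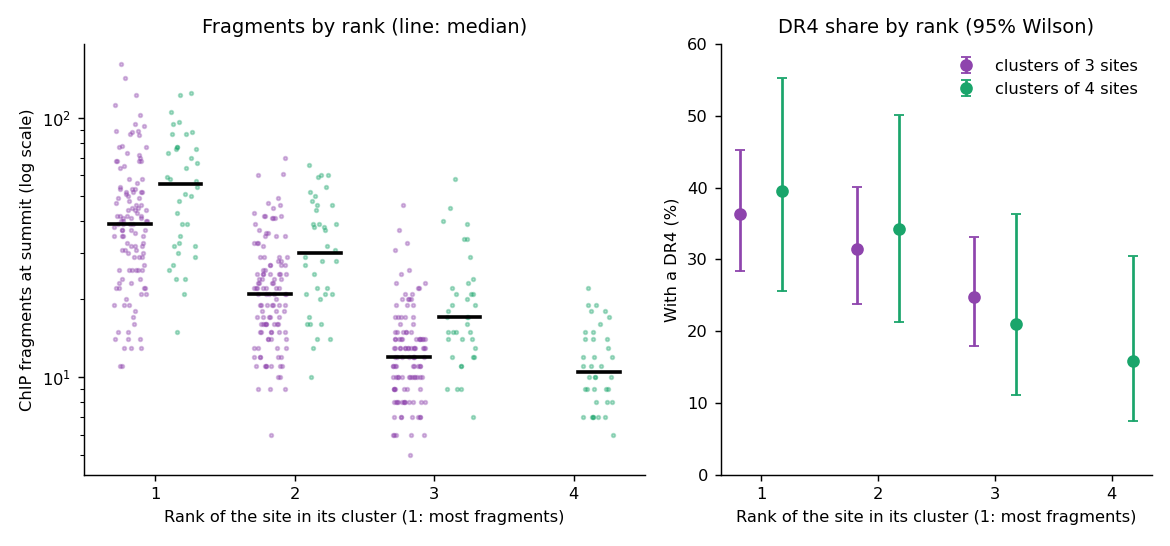
Left, ChIP fragments at the summit (log axis) by the rank of a site in its cluster, for clusters of 3 and of 4 sites; points are sites and lines are medians. Right, share of these sites with a DR4 (percent) with 95% Wilson intervals: it goes from 36.4% at rank 1 to 24.8% at rank 3 in clusters of 3, and from 39.5 to 15.8% over the ranks of clusters of 4.

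The elements themselves were mostly degenerate. Of the 168 best DR4s in clusters, 4 matched both half-sites fully, 28 had 1 mismatch and 136 had 2. The upstream half-site was intact in 53 (31.5%) and the downstream half-site in 45 (26.8%), against 30.1 and 27.9% of 1181 single sites. Counted from 1 at the 5′ end of the element, position 14, the T of the downstream half-site, departed most often (63 of 168, 37.5%, 30.5 to 45.0%), and T14A was its commonest form (26). The matching T of the upstream half-site, position 4, departed in 22.6%. At position 12, the first G of the downstream half-site, only 3 of 168 elements departed (1.79%). The same order was seen in pairs (46.2% at position 14, 2.26% at position 12) and in single sites (39.97 and 3.47%). Hr site 2 with T14A, Klf13 site 1 with T14A and Ppara a site 3 with T14C are examples among the sequences shown. The element lay a median of 28 bp from the summit in clusters and 22.5 bp in the other sites, and in 112 of 168 (66.7%) it was within 50 bp.

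**Figure D4:**
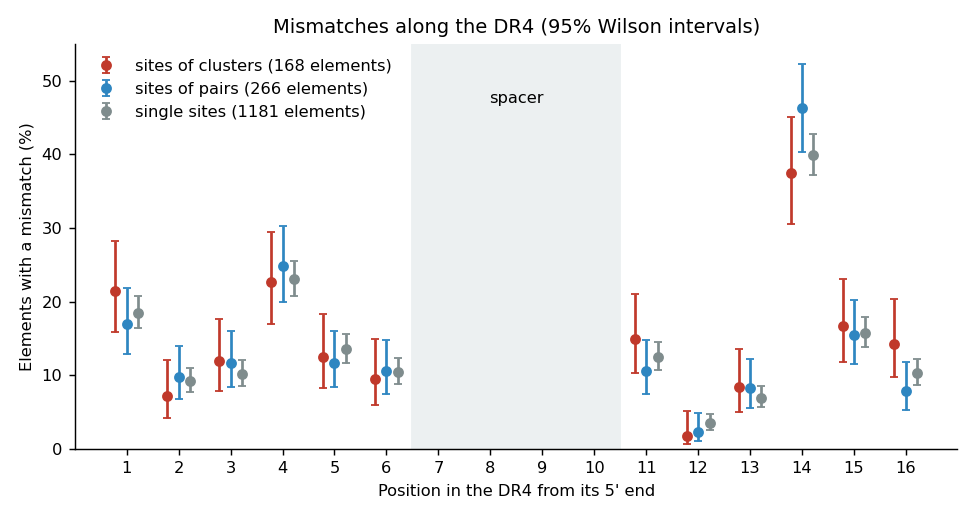
Share of best DR4 elements with a mismatch (y axis, percent) at each half-site position counted from the 5′ end (x axis; positions 7 to 10 are the spacer), for clusters, pairs and single sites with 95% Wilson intervals. Position 14 is the highest in all 3 classes (37.5% in clusters) and position 12 the lowest.

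In 3 cluster sites the DR4s came from tandem repeats of short units. Site 3 of Kif16b held 12 overlapping elements in 71 bp, all on 1 strand and at steps of 5 bp. Units of 5 bases, mostly AGGTC or AGGGC, follow each other there, and units 10 bases apart form the 2 half-sites. Elements made of AGGGC units alone had no intact half-site. Site 3 had 87 fragments (95% Poisson interval, 69.7 to 107) at a fold of 46.0, while sites 1, 2 and 4 of the cluster had 11, 7 and 13. Site 1 of Ginm1 held 29 elements in 370 bp, with 25 of 28 steps of 10 bp. It had 162 fragments (138 to 189) and a fold of 92.8, while sites 2 and 3 had 8 and 18 and no DR4. Site 3 of Adcy9, at the gene of an adenylyl cyclase, held 7 elements in 46 bp and had 33 fragments. A window from the Ginm1 array is shown here for comparison with Kif16b site 3 above, and every element in that array has 2 mismatches. How reads were placed within these repeats was not tested.
Ginm1 site 1, chr10:7774476-7774505, minus strand: acacagtAGGGCAcagcAGGGCAcagcagg

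Cluster sites more often had a gene start within 30 kb than other sites, but they seldom lay on promoters. A promoter was taken as 1000 bp upstream to 100 bp downstream of the start of a protein-coding gene, and it held 27 of 568 cluster summits (4.75%, 3.29 to 6.83%), against 7.24% of the whole list and 7.74% of single sites (6.90 to 8.67%). Introns held 53.2% of cluster sites (49.1 to 57.2%) and 48.8% of the whole list. Intergenic sequence held 37.1% of cluster sites and 38.1% of single sites. A gene start was within 30 kb of 68.5% of cluster sites (64.6 to 72.2%), against 57.0% of the whole list, 58.8% of sites in pairs and 54.5% of single sites. Within 10 kb the shares were similar, with 32.9% of cluster sites, 35.4% of sites in pairs and 32.0% of single sites. Within 1 kb the order was the other way, with 6.87% of cluster sites, 10.6% of sites in pairs and 12.9% of single sites. Sites of 1 cluster share their gene and are not independent, and these differences were not tested. Of the 389 cluster sites within 30 kb of a start, 242 (62.2%) lay downstream of it.

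Seen as loci, 26 of the 169 clusters (15.4%) touched a promoter, 75 lay wholly inside 1 gene or inside the same overlapping genes, 63 lay wholly in introns of such a gene, and 45 were wholly intergenic. The 27 promoter sites carried a DR4 in 6 (22.2%, 10.6 to 40.8%), and the 58 other sites of these clusters in 18 (31.0%, 20.6 to 43.8%). The promoter site was the strongest of its cluster in 13 of 27. Protein-coding genes with a start within 30 kb of a cluster site numbered 243, which is 6.64% of the 3659 genes near any TRBS and 1.11% of all 21938 genes, and 43 clusters had no such gene. Chromosome 7 had the most clusters (16), and their density went from 2.05 per 100 Mb on chromosome 1 to 12.3 on chromosome 11.

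Genes of known function were grouped into 14 lists, 11 of them for brown fat, lipid and glucose metabolism, hormone action and gene control and 3 for other cell types. Of the 224 distinct genes listed, 29 (12.9%) had a start within 30 kb of a cluster site, against 1.11% of all protein-coding genes. The lists were made with earlier results of these data known, so their counts describe the loci and are no evidence of enrichment. In the next paragraphs, distances are measured from the summit to the gene start, and values of sites are ChIP fragments at the summit.

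The genes of heat production were led by Ucp1, which encodes the uncoupling protein that lets brown adipocyte mitochondria release energy as heat. Its 5 TRBS lay upstream of the start, at 11606, 5849, 4514, 2462 and 117 bp, and had 36, 86, 362, 267 and 27 fragments. The 2 strongest were the sites at 4514 bp (95% Poisson interval, 326 to 401) and 2462 bp (236 to 301), and neither held a DR4. The only DR4, with G3C and A6T, was in the site at 5849 bp and lay 232.5 bp from that summit. The total of 778 fragments was the highest of the 169 clusters, ahead of 271 at Cebpb. Input background at the Ucp1 summits, 2.74 to 4.57 fragments, was also above that of most cluster sites, of which 13 of 568 reached 2, and its part in the result was not tested. The fold, which takes this background into account, was 65.2 and 62.7 at the 2 strongest sites and 7.49 to 16.2 at the others.

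Ucp3, which encodes a related mitochondrial carrier, also had 5 sites. Those upstream, at 12669, 10989, 7095 and 1586 bp, had 18, 14, 54 and 69 fragments, and the site 1863 bp downstream of the start had 10. No site held a DR4, and this was the only cluster of 5 or more without one. The neighbouring gene Ucp2 also had its start within 30 kb. Kcnk3, a potassium channel gene of brown adipocytes, had 3 weaker sites at 790 bp upstream (22 fragments) and 6232 and 10720 bp downstream (9 and 8), also without a DR4. Of the 22 genes listed for brown fat identity, 14 had a TRBS within 30 kb and 2, Ucp1 and Kcnk3, had a cluster. Over all 21938 protein-coding genes these numbers were 3659 and 243 (1.11%).

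**Figure D5:**
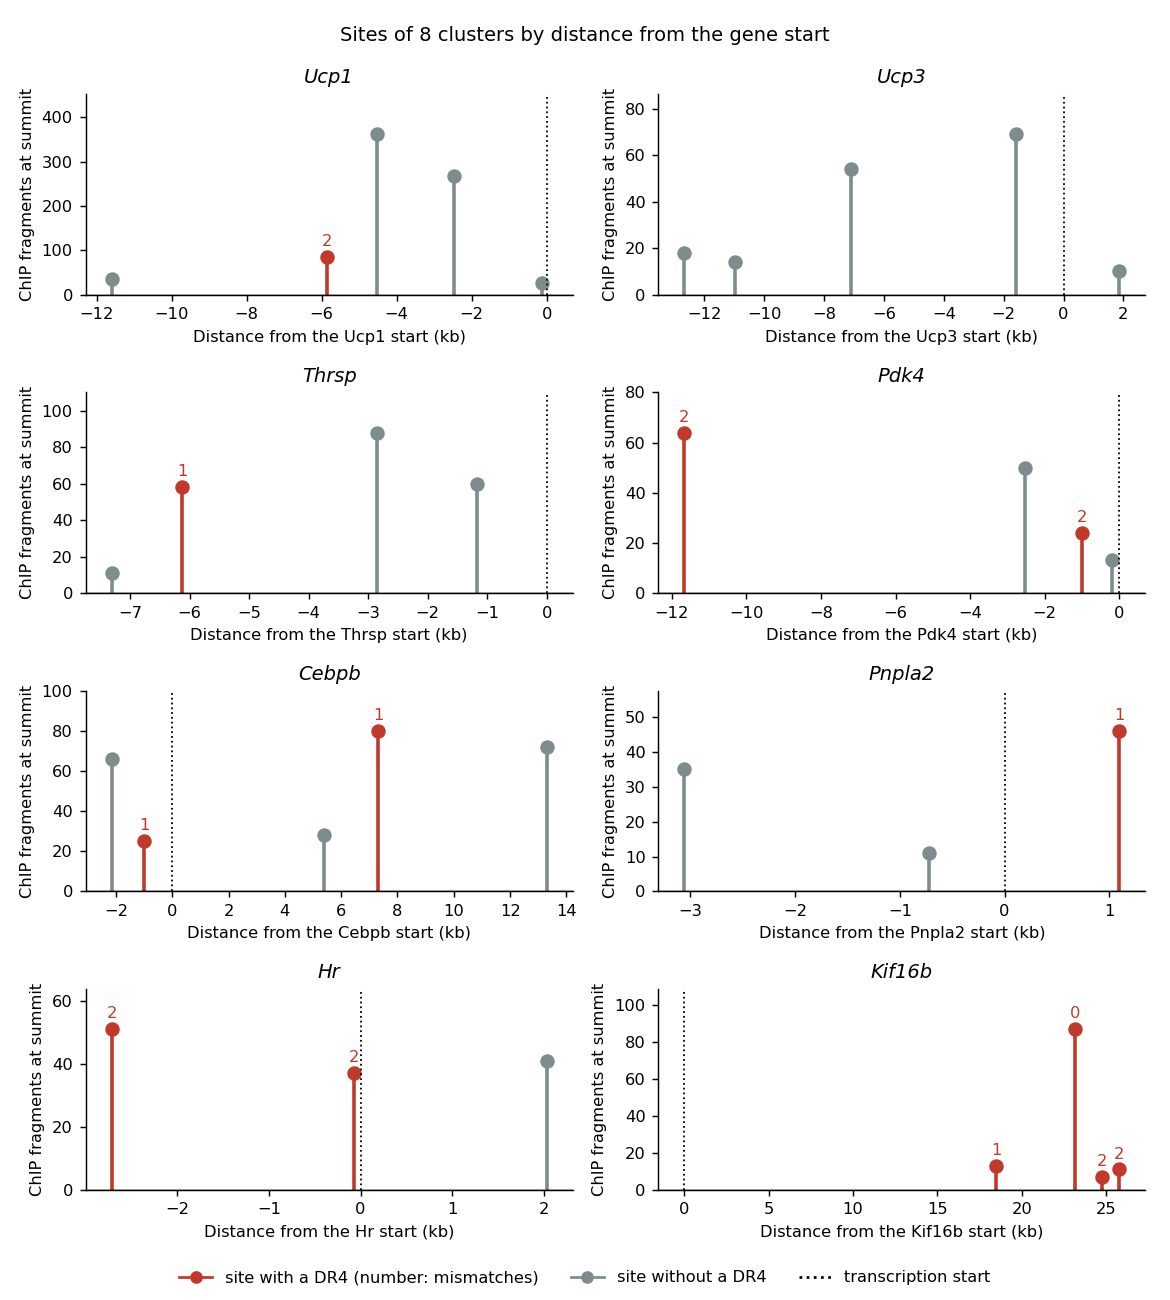
Sites of 8 clusters placed by the distance of their summit from the gene start (x axis, kb, positive downstream) with ChIP fragments at the summit as height (y axis, own scale in each panel); red sites carry a DR4 with the number of mismatches above, grey sites carry none. The 2 tallest Ucp1 sites and all 5 Ucp3 sites are grey, while all 4 Kif16b sites are red.

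Clusters lay at 4 of the 22 genes of fatty acid and triglyceride synthesis, against 1.11% of all genes. Thrsp encodes the Spot 14 protein of lipogenesis and is a classical thyroid hormone target. Its 4 sites, at 1174, 2848, 6129 and 7314 bp upstream, had 60, 88, 58 and 11 fragments, and the one with 58 held a DR4 with the single change G13T. Agpat2, an enzyme of triglyceride assembly, had 12 fragments at the start and 42 and 65 at 3205 and 4942 bp upstream, with DR4s in the first 2. Gpd1, which makes glycerol phosphate, had 17 and 51 fragments at 3825 and 900 bp upstream and 7 and 17 at 4624 and 6434 bp downstream, and its DR4 was in the first. At Acacb, an acetyl-CoA carboxylase gene, the sites at 3020 and 267 bp upstream had 16 and 24 fragments, those at 8301 and 9363 bp downstream had 9 and 7, and the last held the DR4. The strongest site of these 4 clusters had no DR4, and over all clusters it had one in 37.3%.

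Lipid storage and breakdown had clusters at 4 of 20 genes, against 1.11% of all genes. Pnpla2 encodes the lipase that starts the breakdown of triglycerides, and its sites at 3058 and 725 bp upstream and 1096 bp downstream had 35, 11 and 46 fragments. The strongest site, in the first kilobases of the gene, held a DR4 with the single change C15G, 6.5 bp from the summit. Lipe, the hormone-sensitive lipase gene, had 30, 27, 21 and 16 fragments and Mgll, the monoacylglycerol lipase gene, had 26, 13 and 24, with no DR4 in any of these 7 sites. Plin2, which codes for a coat protein of lipid droplets, had its cluster 16166 to 25142 bp upstream, with 29, 11 and 40 fragments and DR4s in the 2 stronger sites.

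For fatty acid oxidation (2 of 18 genes) and glucose use (2 of 20 genes), the clusters were at Pdk4, Acsl1, Hk2 and Pkm, and 1.11% of all genes had one. Pdk4 encodes the kinase that shuts off pyruvate dehydrogenase, and its 4 sites at 191, 1003, 2522 and 11667 bp upstream had 13, 24, 50 and 64 fragments. The site farthest from the start had the most fragments, but its fold of 35.3 was close to the 34.9 of the site with 50. This farthest site held a DR4 with T4G and T14A at 13.5 bp from the summit, and a second DR4 was in the site with 24. Acsl1, a long-chain acyl-CoA synthetase gene, had 22, 22 and 7 fragments without a DR4. Pkm, the pyruvate kinase gene, had 35 fragments at its promoter without a DR4 and 12 and 10 in introns with a DR4 in each. Hk2, the hexokinase gene, had an intronic cluster of 23, 11 and 16 fragments and an intergenic cluster of 5 weak sites, 7 to 18 fragments, that began 72637 bp upstream of the start. The second of these was among the 10 clusters of 5 or more sites, and DR4s were in 1 site of the first and 2 of the second cluster.

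The receptors themselves were among the loci. Clusters lay at 3 of 23 nuclear receptor genes, against 1.11% of all genes. Thra, which encodes the precipitated receptor, had the most compact cluster, 3 intronic sites within 2067 bp with 10, 11 and 10 fragments and no DR4. It began 9990 bp downstream of the start. The sources used here do not give the construct of the tagged receptor, and its part in the reads at this gene was not tested. The next cluster, 21270 bp away, was that of Nr1d1, the clock repressor gene that overlaps the end of Thra on the opposite strand. Its sites had 29, 17 and 23 fragments, and the only DR4 was 818.5 bp from the summit of the first. Ppara, which encodes the lipid-sensing receptor PPARα, had 2 clusters separated by 11027 bp. The one farther upstream had 8, 13 and 46 fragments with DR4s in the 2 stronger sites, and the nearer one had 24, 31 and 15 fragments and no DR4.

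Among the coregulator genes with a cluster, Hr encodes a corepressor of TR and is a direct target of the hormone in many tissues. The Hr cluster was even, with 51, 37 and 41 fragments at 2715 and 72 bp upstream and 2030 bp downstream, and Poisson intervals that overlapped. DR4s with 2 mismatches were in the first 2 sites. At 18820 bp from it followed the cluster of Nudt18, a gene of the nudix hydrolase family, with 8, 44, 59 and 16 fragments and DR4s in the first 3. The 2 clusters thus gave 7 sites in a row, of which 5 carried a DR4.

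Transcription factor and clock genes gave further loci. Cebpb, an early factor of adipocyte differentiation, had 5 sites with 66, 25, 28, 80 and 72 fragments, from 2152 bp upstream to 13295 bp downstream of its start. DR4s with a single mismatch were in the second (G13C) and the fourth (C15G), and only 3 of 169 clusters had more than 1 site of that quality, the others being Kif16b and Midn. Klf13 spread over 25410 bp with 52, 12, 23 and 76 fragments, and the DR4s were in the sites with 52 (T14A) and 23. Both genes came from 24 listed adipocyte factors, and 3 of the 16 clock genes had a cluster, against 1.11% of all genes. Among these, Bhlhe40 had 47, 16 and 6 fragments without a DR4, and the start of Tef lay 26434 bp from the first site of the Tob2 cluster and over 30 kb from its other sites.

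Among the 20 genes listed as thyroid hormone targets, 18 had a TRBS within 30 kb and 8 had a cluster, next to 3659 and 243 of all 21938 protein-coding genes. Besides Ucp1, Ucp3, Thrsp, Hr and Nudt18 these were Tob2, Bcl3 and Atp2a2. Tob2, an antiproliferative gene, had 6 sites with 7, 26, 9, 28, 43 and 35 fragments, 12986 to 29941 bp downstream of its start, and a DR4 in the second only. Bcl3, which encodes a cofactor of NF-kappaB, had 15, 14, 38 and 39 fragments, and its DR4 was in the site with 14. Atp2a2, the calcium pump gene SERCA2, had 29, 27 and 9 fragments far upstream and no DR4. The strongest site had a DR4 in 2 of the 8 clusters, Hr and Nudt18, and in 37.3% of all clusters.

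Several of the largest or strongest clusters lay at genes outside the lists. The cluster of 7 sites spanned 18298 bp over Cbarp, Midn and the approach to Cirbp, which encodes a cold-inducible RNA-binding protein. Its sites had 11, 14, 14, 17, 8, 10 and 29 fragments, so it had the most sites and 103 fragments in all, against a median of 84 per cluster, and the strongest site held a DR4 (A11G) 11.5 bp from its summit. Trim67 had 78, 24, 87, 35 and 13 fragments, and the DR4 of its strongest site was 423.5 bp from the summit while that of its weakest was 5.5 bp away. Pnpla5 and its neighbour Pnpla3, which encode lipases of the patatin family, had 83, 54, 13, 12 and 58 fragments, with the DR4 in the site of 13. Slc29a1, a nucleoside transporter gene, had 35, 11, 30, 72 and 22 fragments, with the DR4 in the last. Gse1 had 39, 7, 9, 35 and 46 fragments deep inside the gene, and the perfect DR4 was in the first, 110.5 bp from the summit.

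Other clusters rich in fragments had 3 or 4 sites. Klf10, a TGF-beta inducible factor gene, had 19, 60, 15 and 122 fragments and a DR4 (T4C) only in the first. Vegfa, the angiogenic growth factor gene, had 37, 10, 34 and 125, with DR4s in the 2 strongest. Smad6, an inhibitor of BMP signalling with its start 44743 bp away, had 61, 95 and 33, with the DR4 in the weakest. The cluster called by Fgd2, whose start is the nearest at 55451 bp, had 89, 46 and 47, and its DR4 (G3T) lay 0.5 bp from the summit of the site with 46. The place of the DR4 relative to the strongest site therefore differed from locus to locus.

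The 4 sites with a perfect DR4 had 87 (Kif16b site 3), 68, 39 (Gse1 site 1) and 24 fragments. All lay above the median of 21 over cluster sites, and the first 3 above the upper quartile of 38. Pwwp2b site 3, the strongest of its cluster, had 68 fragments (52.8 to 86.2) against 6 and 16 at its neighbours. Timp3 site 1, in introns of Timp3 and Syn3, had 24 (15.4 to 35.7), and its neighbours without a DR4 had 26 and 16. At Sardh, a gene of sarcosine breakdown, the 3 sites with a DR4 of 2 mismatches had 50, 31 and 15 fragments and the site without had 14. Slc26a6, with a DR4 in each site, had 14, 25 and 32 fragments, and the last was at the promoter.

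Markers of other cells are few in the lists, and over all protein-coding genes 1.11% had a start within 30 kb of a cluster site. None of 8 macrophage and none of 8 skeletal muscle genes had a cluster, and of 8 endothelial genes 1 did, Egfl7, through the Agpat2 cluster, whose sites were 24394 to 29345 bp from its start. None of the 16 genes listed for adrenergic and cAMP signalling had a cluster and 8 had a TRBS within 30 kb, against 243 and 3659 of all 21938 genes. This holds for the listed genes only. The adenylyl cyclase gene Adcy9 was not listed, and its start lay within 30 kb of a cluster with 137 fragments. Lists this short cannot show a share below that of all genes. A peak list holds no expression, so the labelled tissue was not checked by marker levels.

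Elements of other factors were counted in the peaks on both strands. The DR1, 2 AGGTCA half-sites separated by 1 base and the element of PPAR and RXR, was searched with at most 2 mismatches. It was present in 122 of 568 cluster sites (21.5%, 18.3 to 25.0%), in 14.7% of sites in pairs and in 14.1% of single sites (13.0 to 15.2%). Flanking windows of clusters had 9.14% and those of single sites 7.93%. Within 100 bp of the summit the shares were 11.3% in clusters (8.92 to 14.1%) and 8.50% in single sites (7.63 to 9.47%), with intervals that overlapped. The gap was thus smaller at a fixed width, and cluster peaks were wider. A DR1 was found in 24.4% of cluster sites with a DR4 (18.5 to 31.4%) and in 20.3% of those without (16.6 to 24.5%), although both elements share the half-site.

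An intact AGGTCA half-site was found in 60.4% of cluster sites and 55.4% of single sites, and it was in 54.0% of the cluster sites that had no DR4. Flanking windows of clusters held it in 34.4%. Cluster peaks were wider than single ones, and within 100 bp of the summit the half-site was in 40.5% of cluster sites and 42.9% of single sites, the other order. The EBF element, TCCC and GGGA separated by 2 bases, was in 5.28% of cluster sites against 0.711% of their flanks and 4.42% of single sites, and within 100 bp of the summit in 2.46% of cluster and 2.49% of single sites. For C/EBP (TTGC followed by GCAA, 1 mismatch) the shares were 10.4, 4.47 and 12.1%, and for NF1 (TTGGC and GCCAA separated by 5 bases, 1 mismatch) 4.05, 2.03 and 2.75%. For AP-1 (TGANTCA) they were 18.1, 13.2 and 14.4%, for the GC box (GGGCGGG) 10.6, 6.09 and 12.6%, and for the E-box (CACGTG) 10.2, 6.70 and 8.53%. The ERR element, an AGGTCA preceded by TCA, was in 2.99, 2.34 and 2.15%, but within 100 bp of the summit in 0.880% of cluster sites and 1.16% of single sites. A match is a description of the letters and no evidence that a factor was bound.

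Some clusters were neighbours or copies of each other. Of 150 steps from a cluster to the next on its chromosome, 9 were under 100 kb, with the clusters of Ppara, Hr and Nudt18, and Thra and Nr1d1 the closest. Entpd4 and Entpd4b are near-identical gene copies, and their clusters had 42, 37 and 7 and 44, 35 and 7 fragments. The sequences of the matching sites were 95.5, 99.4 and 99.2% alike, so reads may have been split or shared between them, and these 2 loci are uncertain as separate clusters.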

How the data were processed

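Reads from both ends of the fragments were aligned by the authors to GRCm38 (mm10), and 1 peak list was called for the ChIP library with the input as control. The submitters' processing notes name Bowtie2 2.3.2.2 and MACS2 2.1.1.20160309.6. The deposited list gives a start, an end and a summit for each peak. The deposited score is 10 times the −log10 of the q-value, and the deposited fold is a ratio of ChIP pileup to input background with a pseudocount of 1 on both. The −log10 p-values and q-values were also deposited by the authors and come from the test of that pileup. The study kept peaks with a score of at least 60, whereas the deposited list also holds lower scores, and all peaks were used here.

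The summit is the start coordinate plus the deposited offset. Summits at most 10 kb apart were chained, and chains of 3 or more are the clusters. The ChIP fragments under a summit were worked back from fold and p-value for 5090 of 5107 peaks, with a tolerance of 0.0005 on the −log10 scale. Summit fragments stand in for depth, since library totals were not analysed here. DR4s and other elements were searched on both strands of the whole peak, and flanking windows that met another peak were left out. Genes came from GENCODE vM21, with 1 start per gene. A cluster is called by the protein-coding gene whose start is nearest to any of its summits, with a or b added where 2 clusters share that gene. Python 3.11.15, numpy 2.4.6, scipy 1.17.1, pandas 2.3.3 and pysam 0.24.0 were used, and the scripts were checked on simulated data.

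Named are the clusters of 5 or more sites, the 10 with the most summit fragments among those whose peaks all have a fold of at least 5, those with 3 or more DR4 sites, those within 30 kb of a listed gene, and those with a DR4 without mismatch. Of these, 2 clusters are not reported here. Adcy9, Ppp1r3b, Entpd4, Entpd4b and the clusters at the limit were named after their values were seen. The clusters and the gene lists were chosen with earlier results of these data known. With 1 ChIP and 1 input library there was no test, and intervals (95%, Wilson for shares and exact Poisson for fragments) cover counting error only. No molecular identifiers were used, so fragments may include copies of 1 molecule.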

Additional observations from a re-analysis of the deposited data

How the results depend on the processing

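Counts of clusters rest on the 10 kb limit and on which peaks are kept. With a limit of 5 kb there were 75 clusters with 241 sites and 112 genes, and 45.6% of sites were in introns. With 20 kb there were 287 clusters with 1072 sites and 438 genes, and 63.9% of sites were within 30 kb of a gene start. At the study's score limit of 60 there were 118 clusters with 388 sites and 171 genes, and 29.9% of sites had a DR4. At a score of at least 100 there were 81 clusters with 261 sites. With at most 1 mismatch a DR4 was in 5.63% of cluster sites, and 17.2% of clusters had at least 1 such site, 15.4% exactly 1 and 1.78% at least 2. With at most 3 mismatches these values were 70.4, 97.0, 10.7 and 86.4%, and the only DR4 site was the strongest in 72.2%. Within 100 bp of the summit, 23.9% of sites held a DR4, and 60.9 and 17.8% of clusters had at least 1 and at least 2 such sites. Genes near a cluster numbered 95 within 10 kb, 644 within 100 kb and 469 with all annotated genes, which also put 8.27% of sites in promoters and 90.3% within 30 kb of a start. The DR4 counts per cluster and the place of a lone DR4 therefore turn on the number of mismatches allowed. Of the recomputed values other than shares of other elements, 56 stayed near the reported one and 27 moved. Near means within the 95% Wilson interval for a share, within 1.5 times for a count and within the quartiles of the sites for a median. Shares of the other elements were all lower within 100 bp of the summit. No paired analysis was possible because there was 1 ChIP library. A site with few fragments carries a wide counting error, and the absence of a DR4 says only that these letters were not in the peak.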

Other observations

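Several clusters had a listed gene as their nearest start but lay beyond 30 kb from it, and they are given here because they fall outside the counts above. They were picked after their values were seen, and 11 clusters were of this kind. Prdm16, the regulator of brown fat identity, had 3 sites inside the gene, the nearest 38849 bp from its start, with 63 fragments in all and 2 sites with a DR4. Ppargc1b, a coactivator gene of mitochondrial metabolism, had 4 upstream sites with 164 fragments and 1 DR4 site. Elovl6, a fatty acid elongase gene, had 3 sites inside the gene with 80 fragments and 2 DR4 sites. Near Foxo1, a factor of insulin signalling, lay 2 clusters, with 88 and 177 fragments, 249044 and 349214 bp from its start. Irs2, Pik3r1, Irf4, Bcl6 and Vldlr had a cluster each, with 37 to 103 fragments. The remaining one is the second Hk2 cluster described in the report.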
